A study of Mus musculus with 28 samples.

Results

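The genes described here encode the soluble acid hydrolases of the lysosome, the proteins of its limiting membrane and 3 transcription factors of the MiT/TFE family, 42 genes in all. They were chosen by name, with earlier results of these data known, and the cathepsins and the subunits of the proton pump were left out. Of the 42 genes 41 were measured among 18193 genes, and Cd63 was not analysed here. The lysosome is the acidic compartment in which cells break down proteins, glycans and lipids, and loss of a single hydrolase causes a storage disease. Its genes are known to be switched on together by TFEB, TFE3 and MITF, which bind E-box sequences in their promoters and are held in the cytoplasm by the kinase complex mTORC1 at the lysosomal surface. Senescent cells are known for an enlarged lysosomal compartment, and the common stain for senescence reads the activity of lysosomal beta-galactosidase, the product of Glb1.

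The cells were primary lymphoma cells taken from lymph nodes of Emu-myc mice on the C57BL/6 background, which carry Myc as a transgene driven in the B-cell lineage. Cells of both groups also carried Bcl2, an inhibitor of apoptosis, delivered with the retroviral vector MSCVpuro and selected with puromycin, and grew on a feeder layer of gamma-irradiated NIH 3T3 mouse fibroblasts. Each of 14 lymphomas, named by a number, gave 1 untreated culture and 1 culture treated in vitro for 5 days with Adriamycin (ADR) at 0.05 µg/ml, which the labels mark as senescence induced by treatment. Adriamycin, or doxorubicin, damages DNA by poisoning topoisomerase. Values are log2 expression values from 28 arrays, and a change is how far the ADR culture stood above the untreated culture of that lymphoma. The p-value of a change sets its mean over lymphomas against the spread of the changes between lymphomas. With 1 culture per group and lymphoma, that spread also holds the variation between cultures. The number of arrays limits the precision.

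The labels name no step that parted lymphoma cells from feeder cells or from other cells of the lymph node, so the defining genes of such cells were measured in the same arrays. Of all genes tested, 15.3% rose and 13.4% fell. B-cell genes had an array mean of 9.01 to 9.91 in untreated and 7.86 to 10.19 in ADR cultures, higher after ADR in 3 of 14 lymphomas. Of these 9 genes 5 fell, and Cd79b, Ms4a1, Blnk and Cd72 did not pass the test. Of 19 fibroblast genes 18 rose, and their array mean was 4.82 to 5.80 in untreated and 5.20 to 9.45 in ADR cultures, higher after ADR in 13 of 14 lymphomas. Of 16 macrophage genes 11 rose, with array means of 5.00 to 8.16 and 6.15 to 9.21, higher after ADR in 14 of 14 lymphomas. Of 7 T-cell genes none rose or fell, and their array mean was higher after ADR in 8 of 14 lymphomas. Of 7 granulocyte genes 2 rose, S100a8 by 2.085 and Camp by 0.21. Their array means were 3.97 to 4.77 and 4.06 to 5.08, higher after ADR in 14 of 14 lymphomas, and 6 of the 7 genes had a mean under 5. Within the fibroblast list Pdgfrb, and within the macrophage list Mrc1, C1qa, C1qb, C1qc and Mertk, did not pass the test. The feeder collagen gene Col1a2 went from 4.86, 5.54 and 7.49 (lowest, median and highest) to 5.93, 8.996 and 11.72, a change of 2.95 ± 0.47 (SE, limma adjusted p = 2.18e-04). Adgre1, which encodes a surface protein used to mark mouse macrophages, went from 4.07, 7.37 and 9.84 to 6.29, 9.64 and 11.18, a change of 2.21 ± 0.26 (limma adjusted p = 1.75e-05). Both were higher after ADR in 14 of 14 lymphomas. In lymphoma 9584 the Y-linked gene Eif2s3y read 4.74 untreated and 8.61 after ADR while Kdm5d read 7.17 and 7.20, and the ADR array of 1570 had a 3 prime minus 5 prime Gapdh signal of 0.92, against at most 0.38 elsewhere. Fibroblasts and macrophages have lysosomes of their own, and in such bulk samples a different share of a cell type and a different amount of RNA per cell cannot be told apart.

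Several of the promoters hold the sequence to which the MiT/TFE factors are known to bind. The table of RefSeq promoters (GRCm38.p6, 250 bases before to 50 after each start site, windows of 300 bases) held 46 windows for 38 of the 42 genes. The palindrome CACGTG, the E-box, was found in 9 of the 46 windows (19.6%) against 7.15% of all 32851 windows. The longer palindrome TCACGTGA, the core of the CLEAR element of lysosomal genes, always contains CACGTG, and was found in 3 of the 46 windows (6.52%) against 0.974%. Other lysosomal genes, described further below, had higher shares, with CACGTG in 17 of 56 windows (30.4%) and TCACGTGA in 8 (14.3%). Among the 42 genes, the windows with TCACGTGA belong to Gla, Cln3 and Mcoln1 and are printed below. Those of Glb1, the beta-galactosidase gene, and Lamp1 are printed with them, and that of Lamp1 was added after its 4 E-boxes were seen. Sequences run 5′ to 3′ on the gene's strand, and capitals mark CACGTG or, where the longer core is present, TCACGTGA.
Gla (chrX:134600956-134601255, minus strand): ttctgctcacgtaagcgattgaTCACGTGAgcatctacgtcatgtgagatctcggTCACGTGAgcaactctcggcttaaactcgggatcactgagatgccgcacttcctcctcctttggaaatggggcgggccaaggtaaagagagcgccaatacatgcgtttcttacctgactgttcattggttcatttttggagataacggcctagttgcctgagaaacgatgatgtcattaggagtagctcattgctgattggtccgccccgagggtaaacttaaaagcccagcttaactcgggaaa
Cln3 (chr7:126583187-126583486, minus strand): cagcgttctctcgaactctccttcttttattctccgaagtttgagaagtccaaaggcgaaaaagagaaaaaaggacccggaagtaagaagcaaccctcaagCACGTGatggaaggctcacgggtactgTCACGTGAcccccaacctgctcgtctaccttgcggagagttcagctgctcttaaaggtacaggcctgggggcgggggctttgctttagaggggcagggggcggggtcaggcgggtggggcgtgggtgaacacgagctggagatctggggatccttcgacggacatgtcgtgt
Mcoln1 (chr8:3500269-3500568, plus strand): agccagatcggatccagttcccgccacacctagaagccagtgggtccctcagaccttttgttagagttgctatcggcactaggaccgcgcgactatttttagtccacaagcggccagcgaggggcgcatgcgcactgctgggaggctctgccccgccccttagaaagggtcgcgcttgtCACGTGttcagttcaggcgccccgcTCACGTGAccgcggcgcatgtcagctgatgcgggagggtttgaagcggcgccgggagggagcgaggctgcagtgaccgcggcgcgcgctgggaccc
Glb1 (chr9:114400828-114401127, plus strand): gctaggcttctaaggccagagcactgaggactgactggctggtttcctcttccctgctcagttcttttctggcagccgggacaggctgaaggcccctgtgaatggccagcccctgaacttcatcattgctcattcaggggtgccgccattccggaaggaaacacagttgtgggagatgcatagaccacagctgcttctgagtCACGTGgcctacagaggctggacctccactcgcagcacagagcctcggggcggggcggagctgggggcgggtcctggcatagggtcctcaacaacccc
Lamp1 (chr8:13158911-13159210, plus strand): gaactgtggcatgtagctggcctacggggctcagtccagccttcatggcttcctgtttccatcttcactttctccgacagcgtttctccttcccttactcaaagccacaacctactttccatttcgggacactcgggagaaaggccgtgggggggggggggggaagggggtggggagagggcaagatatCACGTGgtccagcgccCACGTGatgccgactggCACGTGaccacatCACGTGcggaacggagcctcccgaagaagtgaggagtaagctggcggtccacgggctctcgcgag
Both motifs of Gla are TCACGTGA cores, whereas the windows of Cln3 and Mcoln1 hold 1 core and 1 plain E-box each. A second window of Cln3, for another start site, holds no E-box. The other windows of the 42 genes with an E-box were those of Naglu, Gaa, Sgsh and Arsa. A match describes the letters of these windows only and does not tell which factor binds them. No binding was measured, of the MiT/TFE factors or of any other.

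After ADR, 31 of the 41 genes rose, none fell and 10 did not pass the test (limma with lymphoma as a block, adjusted p under 0.05 over all genes; 34 higher and 0 lower at an unadjusted p under 0.05). Among all genes tested 15.3% were called higher and 13.4% lower. Without 9584 the count was 33, and without 1570 it was 31. The median change of the 41 genes was 0.60, against -0.001 over all genes. Most of the changes were below a doubling. The 4 of 41 genes that were called higher and at least doubled were Gla, Tpp1, Npc1 and Lamp1. Among all 18193 genes this was so for 598. In 10 of the 41 genes (24.4%) the ADR value was above the untreated value in 14 of 14 lymphomas, which was so in 2.87% of all genes. These were Hexa, Ids, Npc1, Tpp1, Grn, Lamp1, Laptm4a, Cln3, Mcoln1 and Tfe3. For each of the 41 genes the range of the ADR cultures overlapped that of the untreated cultures; all ADR cultures lay above all untreated ones in 0.0605% of the genes tested. The count of calls higher moved little with scaling: centring each array on its median gave 31 calls higher as well. That centring shifted the median of all genes to -0.100, and calls higher made up 32.3% of all calls in place of 53.4%. Under it Galns, with a change of -0.25, was called lower.

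**Figure D1:**
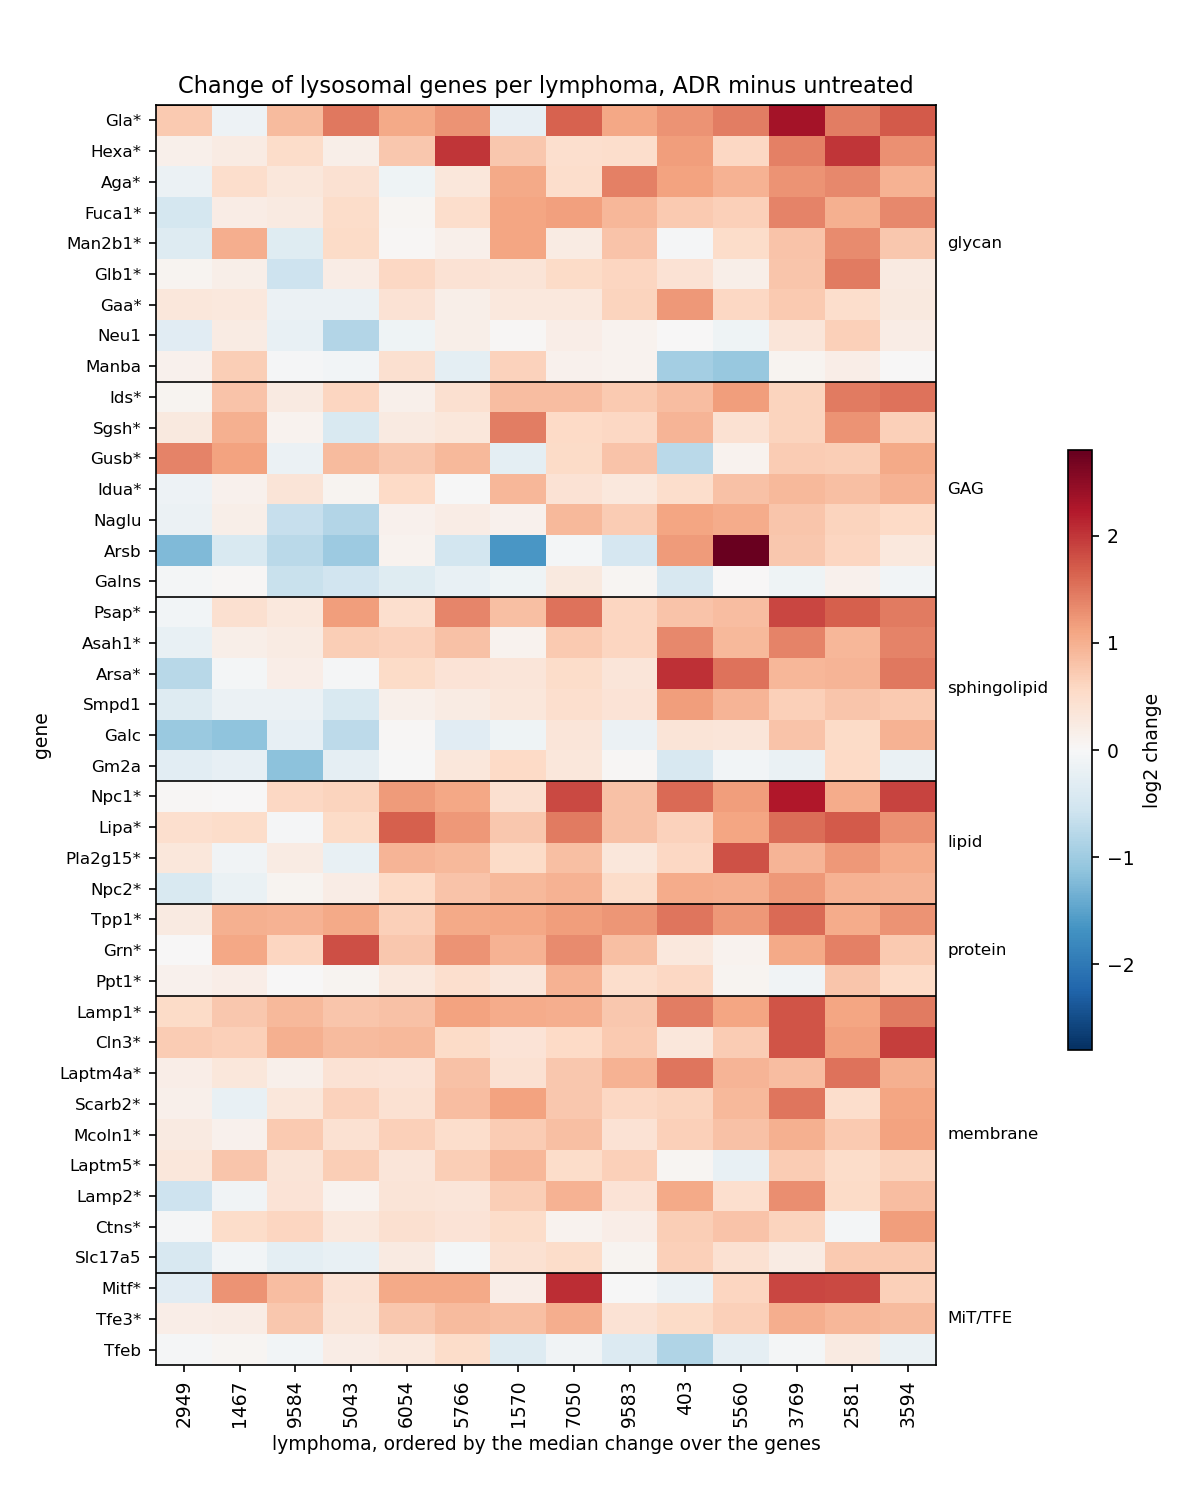
Log2 change of 41 lysosomal genes (rows, grouped by role, asterisks mark genes past an adjusted p of 0.05 in limma) in each of 14 lymphomas (columns, ordered by the median over the genes). Red is higher after ADR and blue lower. Lymphoma 2949, at the left, has 20 of 41 genes lower, and 3594, at the right, has 3 of 41 lower.

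Among the exoglycosidases, which take single sugars from the ends of glycan chains, 7 of 9 genes rose. Glb1 stood at 7.53, 8.65 and 9.84 (lowest, median and highest) in untreated cultures and at 7.62, 9.02 and 9.92 after ADR. Its change was 0.38 ± 0.11 (SE, limma adjusted p = 0.0171), higher in 13 of 14 lymphomas, with -0.57 in 9584 and 1.46 in 2581 at the ends. The untreated culture of 9584 had the highest untreated level, and only 1 ADR culture was above it. No enzyme activity was measured.

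Gla, the alpha-galactosidase that is lost in Fabry disease, stood at 6.85, 8.26 and 9.05 untreated and 8.003, 9.39 and 10.64 after ADR. It rose by 1.14 ± 0.17 (limma adjusted p = 1.12e-04), or 2.20-fold, the largest change of the 41 genes. The exceptions were 1467 and 1570, at -0.14 and -0.23, and 9 ADR cultures lay above the highest untreated one. Hexa, the alpha subunit of beta-hexosaminidase, had the widest spread between lymphomas of any gene in this role, at 5.03, 8.96 and 10.97 untreated and 5.19, 10.10 and 11.81 after ADR. Lymphomas 5043 and 2949 were lowest in both groups, and Hexa rose in 14 of 14 lymphomas by 0.85 ± 0.16 (limma adjusted p = 6.23e-04). Fitted without the pairing, this change had an adjusted p of 0.511.

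Aga, which cleaves the bond between asparagine and its glycan, stood at 8.25, 8.66 and 9.13 untreated and 8.34, 9.52 and 10.15 after ADR and rose by 0.71 ± 0.13 (limma adjusted p = 7.66e-04), with 9 ADR cultures above the untreated range. Fuca1, the alpha-fucosidase, stood at 8.76, 9.39 and 9.77 untreated and 9.09, 9.94 and 10.76 after ADR and rose by 0.67 ± 0.13 (limma adjusted p = 0.00136), with 11 ADR cultures above it. Both were lower in 2949, at -0.16 and -0.49. Man2b1, an alpha-mannosidase, and Gaa, the alpha-glucosidase of glycogen breakdown, rose by 0.46 and 0.38. The sialidase gene Neu1 and the beta-mannosidase gene Manba did not pass the test, at 0.023 ± 0.091 and 3.26e-04 ± 0.13 (SE).

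Of 7 genes for the breakdown of glycosaminoglycans, the long sugar chains of proteoglycans, 4 rose. Ids, the iduronate sulfatase lost in Hunter disease, stood at 7.67, 8.21 and 8.77 untreated and 8.41, 9.02 and 9.67 after ADR and rose by 0.74 ± 0.11 (limma adjusted p = 1.24e-04), in 14 of 14 lymphomas. Sgsh, a heparan sulfatase, stood at 5.28, 5.92 and 6.24 untreated and 5.65, 6.31 and 7.41 after ADR and rose by 0.57 ± 0.12 (limma adjusted p = 0.00221). For these, 10 and 9 ADR cultures were above the untreated range. Gusb, the beta-glucuronidase, stood at 8.39, 10.32 and 11.24 untreated and 9.79, 10.62 and 11.69 after ADR and rose by 0.56 ± 0.15 (limma adjusted p = 0.0106). It was lower in 403, at -0.75, and most raised in 2949, by 1.40, the lymphoma with the lowest median change over the 41 genes. Idua, the iduronidase lost in Hurler disease, stood at 6.58, 7.20 and 7.63 untreated and 7.19, 7.61 and 8.43 after ADR and rose by 0.47 ± 0.097 (limma adjusted p = 0.0016). Naglu, Galns and Arsb did not pass the test, at 0.34 ± 0.15, -0.15 ± 0.071 and -0.029 ± 0.28. Naglu, a heparan glucosaminidase, passed when 5043 or 9584 was left out, at 0.43 and 0.41. Arsb, the N-acetylgalactosamine sulfatase, had the widest range of changes of the 41 genes, from -1.62 in 1570 to 2.78 in 5560.

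**Figure D2:**
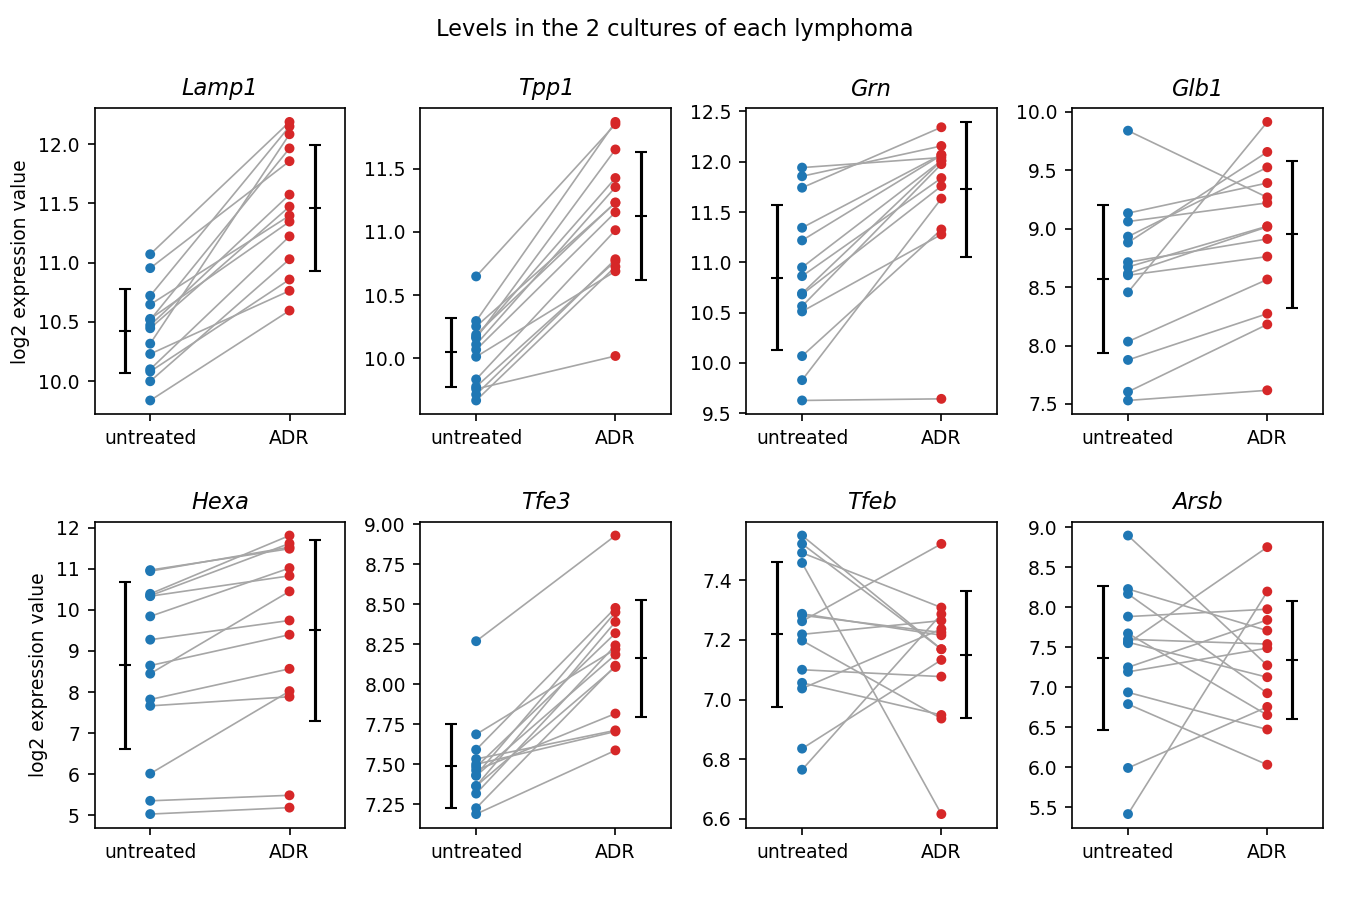
Log2 expression value of 8 genes in the untreated (blue) and ADR (red) culture of 14 lymphomas, with a line joining the cultures of a lymphoma and black bars for mean ± SD. Lamp1, Tpp1, Grn, Hexa and Tfe3 are higher after ADR in 14 of 14 lymphomas, Glb1 in 13, Arsb in 6 and Tfeb in 5.

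Among sphingolipid hydrolases and their activators, 3 of 6 rose. Psap, the precursor of the saposins that present sphingolipids to their hydrolases, stood at 10.38, 11.57 and 12.85 untreated and 10.88, 12.41 and 13.84 after ADR and rose by 0.95 ± 0.14 (limma adjusted p = 1.29e-04) in 13 of 14 lymphomas. Asah1, the acid ceramidase, stood at 8.71, 9.34 and 10.02 untreated and 8.86, 9.98 and 11.07 after ADR and rose by 0.70 ± 0.12 (limma adjusted p = 5.10e-04), also in 13 of 14. In both genes 2949 was the exception, and 5 and 7 ADR cultures lay above the untreated range. Arsa, the sulfatide sulfatase, stood at 6.33, 7.18 and 7.51 untreated and 6.69, 7.83 and 9.03 after ADR and rose by 0.60 ± 0.18 (limma adjusted p = 0.0205). Its changes ran from -0.78 in 2949 to 2.05 in 403, and without 403 and 5560 the change was 0.40 with an adjusted p of 0.0696. Smpd1, the acid sphingomyelinase, fell short of the threshold at 0.34 ± 0.12 (limma adjusted p = 0.0548). It passed when 1467, 2949, 5043 or 9584 was left out, at 0.37 to 0.39. The galactosylceramidase gene Galc and the GM2 activator gene Gm2a stood at -0.024 ± 0.16 and -0.076 ± 0.11. Galc was dim, with a mean of 5.76 over the arrays, where the median of all genes was 5.80.

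All 4 genes for lipid hydrolysis and cholesterol exit rose. Npc1, the membrane protein that passes cholesterol out of the lysosome, stood at 5.26, 6.04 and 6.97 untreated and 6.000, 7.23 and 8.31 after ADR and rose by 1.04 ± 0.17 (limma adjusted p = 2.26e-04), or 2.06-fold. It was higher in 14 of 14 lymphomas, by as little as 0.015 in 1467 and 0.039 in 2949 and as much as 2.25 in 3769. Lipa, the acid lipase that frees cholesterol from its esters, stood at 8.07, 8.76 and 9.62 untreated and 8.64, 9.71 and 10.42 after ADR and rose by 0.98 ± 0.13 (limma adjusted p = 4.96e-05), in 13 of 14. Pla2g15, a lysosomal phospholipase, stood at 6.77, 7.44 and 8.34 untreated and 7.08, 8.18 and 8.68 after ADR and rose by 0.67 ± 0.13 (limma adjusted p = 0.00129). Npc2, the soluble cholesterol carrier that works with Npc1, stood at 11.25, 11.81 and 12.37 untreated and 11.33, 12.33 and 13.39 after ADR and rose by 0.61 ± 0.13 (limma adjusted p = 0.00185). Between 4 and 8 ADR cultures of each of these genes were above the untreated range.

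All 3 genes for protein and fatty acyl processing rose. Tpp1, a tripeptidyl peptidase lost in a form of Batten disease, stood at 9.67, 10.09 and 10.65 untreated and 10.02, 11.19 and 11.87 after ADR, and 13 of 14 ADR cultures were above the highest untreated one. Its change of 1.08 ± 0.085 had the smallest limma adjusted p of the 41 genes (1.72e-06). The exception among the ADR cultures was 2949, with a change of 0.26. Grn, which encodes progranulin, the precursor of the granulins, stood at 9.63, 10.78 and 11.94 untreated and 9.64, 11.99 and 12.34 after ADR. It rose by 0.88 ± 0.13 (limma adjusted p = 9.71e-05) in 14 of 14 lymphomas, from 0.016 in 2949 to 1.81 in 5043. Ppt1, a palmitoyl-protein thioesterase, stood at 7.88, 8.51 and 10.02 untreated and 8.01, 9.12 and 9.93 after ADR and rose by 0.35 ± 0.082 (limma adjusted p = 0.00443), with no ADR culture above the untreated range.

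Of 9 measured membrane proteins and transporters 8 rose. Lamp1, a heavily glycosylated protein that lines the lysosomal membrane, stood at 9.84, 10.46 and 11.07 untreated and 10.60, 11.44 and 12.19 after ADR, and 10 ADR cultures were above the untreated range. It rose in 14 of 14 lymphomas by 1.04 ± 0.087 (limma adjusted p = 2.23e-06), and its smallest change, 0.53 in 2949, was the largest minimum among the 41 genes. Cln3, a membrane protein lost in juvenile Batten disease, stood at 5.47, 6.30 and 7.16 untreated and 6.17, 7.19 and 8.12 after ADR and rose by 0.88 ± 0.12 (limma adjusted p = 5.22e-05). Laptm4a, a membrane protein of late endosomes and lysosomes, stood at 9.80, 10.59 and 11.32 untreated and 10.56, 11.16 and 12.27 after ADR and rose by 0.73 ± 0.11 (limma adjusted p = 1.57e-04). Both were higher in 14 of 14 lymphomas. Scarb2, the receptor that carries glucocerebrosidase to the lysosome, stood at 8.12, 8.58 and 9.18 untreated and 8.88, 9.14 and 9.81 after ADR and rose by 0.66 ± 0.11 (limma adjusted p = 3.01e-04). The calcium channel gene Mcoln1 rose by 0.64, with 11 ADR cultures above the untreated range. Laptm5, Lamp2 and the cystine transporter gene Ctns rose by 0.50, 0.48 and 0.45. Ctns was dim, with a mean of 5.52 over the arrays, where the median of all genes was 5.80. Slc17a5, the sialic acid transporter, did not pass the test at 0.21 ± 0.10, and passed without 2949, at 0.26.

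Of the 3 listed MiT/TFE factors 2 rose. Tfe3 stood at 7.19, 7.45 and 8.27 untreated and 7.59, 8.20 and 8.93 after ADR and rose in 14 of 14 lymphomas by 0.67 ± 0.078 (limma adjusted p = 1.51e-05). Mitf stood at 4.09, 6.38 and 7.36 untreated and 4.76, 7.01 and 8.76 after ADR and rose by 0.81 ± 0.19 (limma adjusted p = 0.00391) in 11 of 14, with 2.07 in 7050 and -0.32 in 2949. Tfeb stood at 6.76, 7.24 and 7.55 untreated and 6.62, 7.19 and 7.52 after ADR, a change of -0.069 ± 0.089 (limma adjusted p = 0.633) that was above 0 in 5 of 14. These are transcript levels, and the place of the proteins in the cell, through which the factors are known to be controlled, was not measured. Differences between the changes of these factors were not tested. Of the genes with an E-box in a promoter window 8 of 9 rose, and of 28 measured genes with windows but no E-box 20 rose. Of all 41 genes 75.6% rose, and of all genes tested 15.3%. The share among all genes with an E-box was not taken, and a difference between these counts was not tested.

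Some of the 41 genes are read by more than 1 probe set, and 27 of them had 51 further probe sets. Of these, 22 rose, 1 fell and 28 did not pass the test. A mean under 6 was found in 27 of them, where the median of all genes was 5.80. The sets in use of Grn and Laptm5 may share probes with other transcripts. Their other brighter sets also rose, at 1.05 and 1.26 for Grn and at 0.81 and 0.51 for Laptm5. Of these, the Grn set at 1.05 and both Laptm5 sets may share probes as well. A dimmer Laptm5 set with a mean of 5.88 was not called, at 0.097, and another with a mean of 3.5 rose by 0.37. The other set of Gaa rose by 0.56, those of Lipa by 1.08 and 1.04, and 1 of those of Mcoln1 by 0.64. The further set of Arsb that fell, by 0.26, had a mean of 4.29. With the most variable set of each gene, Man2b1, Fuca1, Gusb, Idua and Pla2g15 were no longer called, at 0.24 to 0.33.

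Other lysosomal genes, outside the 42, were read from a list of 62, of which 53 were measured. Of these 27 rose and 3 fell, with a median change of 0.29, and the same background of 15.3% and 13.4% applies. Of 12 genes for other hydrolases and related enzymes 5 rose. They were led by Acp2, an acid phosphatase, at 0.88 ± 0.17, and Hgsnat, a heparan acetyltransferase, at 0.61 ± 0.099. Of 9 genes for the mannose 6-phosphate tagging, the sorting or the activation of hydrolases 4 rose and 2 fell. Sumf1, which activates all sulfatases, rose by 1.12 ± 0.12 and Igf2r, the large mannose 6-phosphate receptor, by 0.74 ± 0.11, while Gnptab, which starts the tagging, and the adaptor gene Gga2 fell, with changes of -0.38 ± 0.096 and -0.33 ± 0.10. Of 15 other membrane proteins 9 rose, led by the metal ion transporter gene Slc11a1 at 1.45 ± 0.25 and the chloride exchanger gene Clcn7 at 1.18 ± 0.11, and Abcb9 fell, at -0.14 ± 0.050. Slc11a1 is best known from macrophages. Of 17 genes that anchor or control mTORC1 9 rose, led by Fnip2, a folliculin partner, at 2.07 ± 0.28 and the GTPase gene Rragc at 0.86 ± 0.077. In Rragc all 14 ADR cultures were above the untreated range.

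The lymphomas differed in how far the 41 genes moved. Their median change was lowest in 2949, at 0.016, where 21 genes were higher and 20 lower. It was 0.20 in 1467, 0.22 in 9584 and 0.30 in 5043. The highest medians were 0.96 in 3594, 0.93 in 2581 and 0.91 in 3769, where 37 to 40 of 41 genes were higher. The medians of all genes in the same lymphomas lay between -0.095 and 0.035.

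Set beside these, the changes of Col1a2 and Adgre1 were both among the smaller ones in 2949, at 0.75 and 0.93. Lymphoma 1467 had the smallest Col1a2 change, 0.38, with an Adgre1 change of 2.92. Lymphoma 403 had the largest Col1a2 change, 6.31, with the smallest Adgre1 change, 0.71, and its 41 genes had a median change of 0.67. In 3594, 2581 and 3769 both were large, at 3.57 to 4.38 for Col1a2 and 3.02 to 3.74 for Adgre1. The Col1a2 and Adgre1 changes were not correlated past the threshold over the 14 lymphomas (r = -0.22, permutation p = 0.444; rho = -0.13, p = 0.66), and r was 0.18 without the 2 lymphomas farthest from the median.

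Each gene's change was correlated with those of Col1a2 and Adgre1 over the 14 lymphomas, in a family of 82 relations with 100000 permutations each. With Col1a2, 13 genes passed an adjusted p of 0.05, 12 of them with r above 0. An r above 0.6 was found for 39% of the 41 genes and for 10% of all genes. Smpd1 had r = 0.91 (permutation p = 2.00e-05, adjusted 8.20e-04) and rho = 0.90 (p = 4.00e-05). Arsa had r = 0.90, with the smallest p that 100000 permutations can give (1.00e-05, adjusted 8.20e-04), and rho = 0.93 (p = 2.00e-05). The other 10 were Arsb, Laptm4a, Naglu, Asah1, Npc2, Pla2g15, Galc, Slc17a5, Npc1 and Lamp1, with r from 0.68 for Lamp1 to 0.85 for Arsb. Without 403 and 5560, the lymphomas farthest from the median Col1a2 change, r of these 12 genes was 0.70 to 0.87, and within the 11 lymphomas described as a reanalysis of earlier samples 0.64 to 0.91. Among the 12 were Smpd1, Arsb, Naglu, Galc and Slc17a5, whose changes had not passed the test. By role, 4 of 6 sphingolipid genes and 3 of 4 lipid genes were among them, and none of the 3 listed MiT/TFE factors.

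Manba went the other way, with r = -0.76 (permutation p = 0.00123, adjusted 0.0112) and rho = -0.57 (p = 0.0359, adjusted 0.14). It was lowest relative to its untreated culture in 5560 and 403, at -1.05 and -0.95, and without these r was -0.44.

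The Col1a2 changes leave a gap between 2.27 and 3.57, with 7 lymphomas on either side, so r was also taken within each side, a split chosen after the values were seen. Smpd1 and Arsa kept r of 0.67 and 0.66 in the lower and 0.84 and 0.85 in the upper 7. Npc1 had 0.90 in the lower and -0.27 in the upper 7, and Galc 0.83 and -0.019. For Lamp1 r was 0.18 and -0.096, and its median change was 0.78 on the lower and 1.12 on the upper side. Arsb had medians of -0.76 and 0.59 on these sides.

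**Figure D3:**
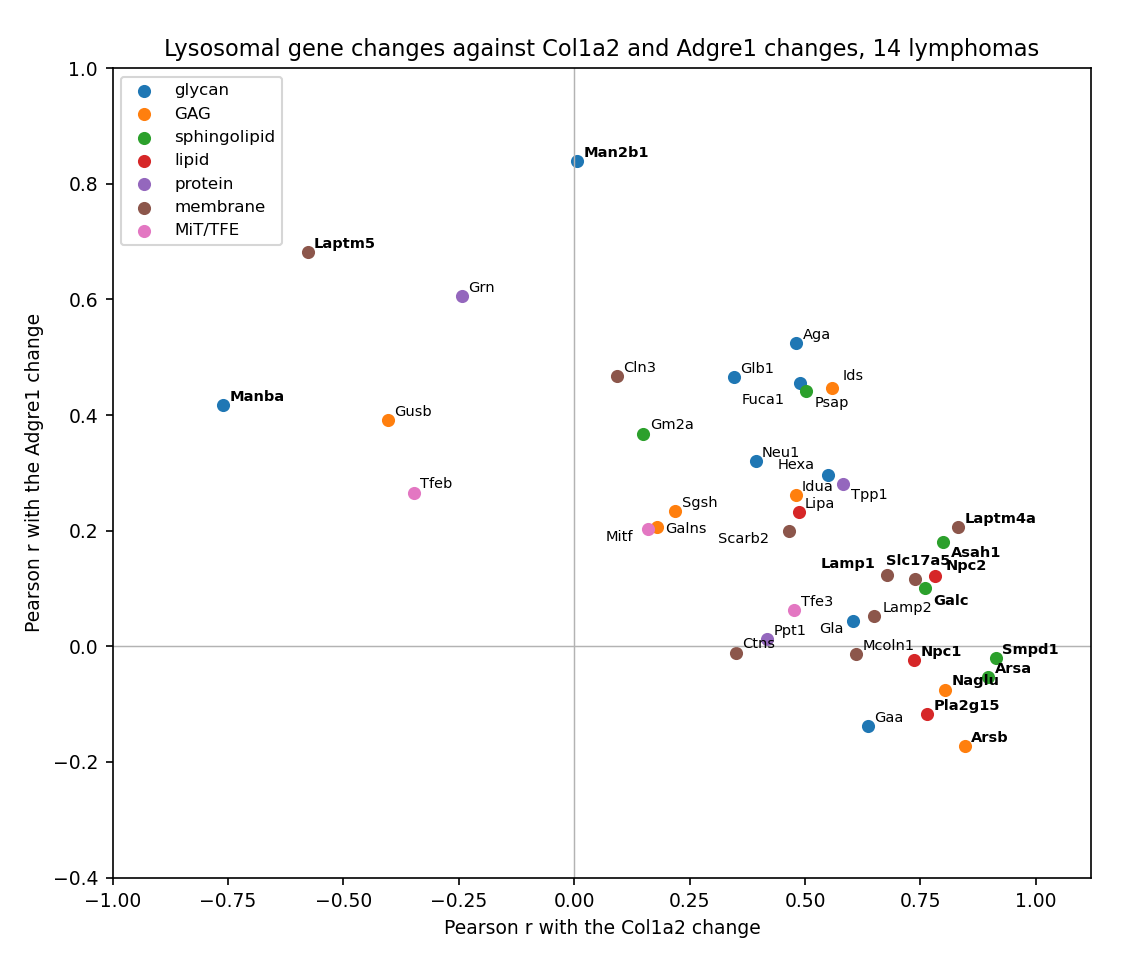
Pearson r over 14 lymphomas of each of 41 genes' ADR minus untreated changes with the change of Col1a2 (horizontal) and of Adgre1 (vertical), coloured by role. Names in bold passed an adjusted p of 0.05 with either. Smpd1 and Arsa lie farthest right, Manba farthest left and Man2b1 highest.

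With the Adgre1 change, 2 genes passed the threshold, and 7.32% of the 41 genes had an r above 0.6 against 1.74% of all genes. Man2b1 had r = 0.84 (permutation p = 3.50e-04, adjusted 0.00574) and rho = 0.79 (p = 0.00133, adjusted 0.0116), with r = 0.01 for Col1a2. Without 403 and 7050 its r was 0.85, and within the 11 lymphomas 0.87. Its median change was 0.028 in the 7 lymphomas with the smaller and 0.81 in the 7 with the larger Adgre1 change, and r within these was 0.27 and 0.20. Laptm5, a membrane protein best known from blood cells, had r = 0.68 (permutation p = 0.00533, adjusted 0.0312) and rho = 0.59 (p = 0.0308, adjusted 0.126). Within the 7 lymphomas of larger Adgre1 change its r was -0.90, and within the others 0.46. Grn, next in order, had r = 0.61 and did not pass (permutation p = 0.0227, adjusted 0.0932).

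**Figure D4:**
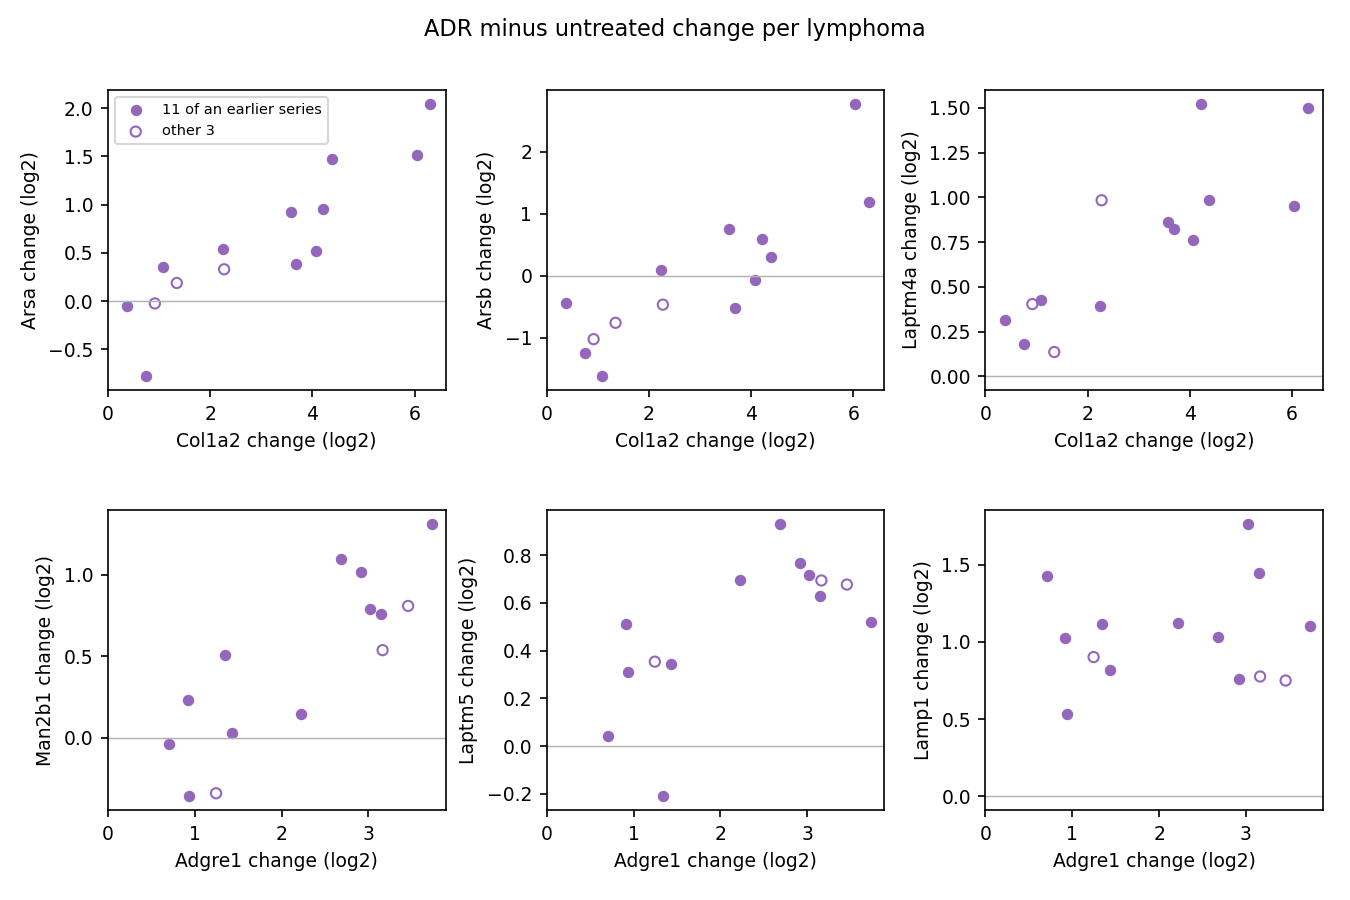
Change of single genes (vertical, log2) against the change of Col1a2 (upper row) or Adgre1 (lower row) in the same lymphoma. Filled points are 11 lymphomas described as a reanalysis of earlier samples, open points the other 3. Arsa, Arsb and Laptm4a are higher where Col1a2 changed more, Man2b1 where Adgre1 changed more, and Lamp1 is above 0 in 14 of 14 lymphomas.

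In the untreated cultures, levels of 6 of the 41 genes were correlated with the Adgre1 level past the threshold, again over 82 relations. These were Psap (r = 0.86), Lamp1 (0.84), Asah1 (0.82), Grn (0.75), Gla (0.74) and Hexa (0.72), with permutation p from 1.20e-04 to 0.0042 and adjusted p from 0.00738 to 0.0492. Their rho was 0.72 to 0.85, and by rho 5 of the 6 passed, Grn not (adjusted p = 0.0597). An r above 0.6 was found for 22% of the 41 genes and 3.07% of all genes. Without 1570 and 5043, farthest from the median Adgre1 level, r of these 6 was 0.70 to 0.80, and none of the 82 relations passed (lowest adjusted p 0.0566, 14 with a permutation p under 0.05). With the untreated Col1a2 level none of the 41 genes had an r above 0.6, against 1.94% of all genes, and only Tfeb passed, at r = -0.74 (permutation p = 0.00228, adjusted 0.0325; rho = -0.59, p = 0.0297, adjusted 0.151). This rests on 5766 and 6054, without which r was -0.29. By rho, Idua passed with Col1a2 (rho = 0.77, permutation p = 0.00173, adjusted 0.0355), with r = 0.43 (p = 0.122, adjusted 0.479), and r = 0.77 without 5766 and 6054.

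The changes were fitted again as the value at which Col1a2 would not change, the intercept of a gene's 14 changes on the Col1a2 change. The median of the 41 genes was then 0.27, against 0.020 over all genes. At this value 8 genes were called higher and 2 lower, against 5.61% and 4.58% of all genes. Those higher were Grn at 1.06 ± 0.23 (SE, limma adjusted p = 0.00996), Gusb at 0.93 ± 0.26 (0.0344), Cln3 at 0.81 ± 0.22 (0.0313), Tpp1 at 0.80 ± 0.14 (0.00314), Laptm5 at 0.77 ± 0.13 (0.00314), Lamp1 at 0.70 ± 0.13 (0.00453), Manba at 0.58 ± 0.16 (0.034) and Tfe3 at 0.46 ± 0.13 (0.0387). Those lower were Arsb at -1.48 ± 0.28 (0.00538) and Galc at -0.76 ± 0.20 (0.0255). Manba, Arsb and Galc had a change close to 0 before. Grn, Gusb, Laptm5 and Manba, whose values lay above their changes, had r with Col1a2 of -0.24, -0.40, -0.58 and -0.76. Without 403 and 5560 these were 0.26, 0.067, -0.042 and -0.44, while those of Arsb and Galc were 0.76 and 0.85. The smallest Col1a2 change was 0.38, so values at no Col1a2 change lie outside the measured changes. Arsa moved from 0.60 to -0.40 ± 0.16 (limma adjusted p = 0.136). Glb1 was not called, at 0.15 ± 0.20 (0.734), nor was Mcoln1, at 0.38 ± 0.12 (0.0539).

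**Figure D5:**
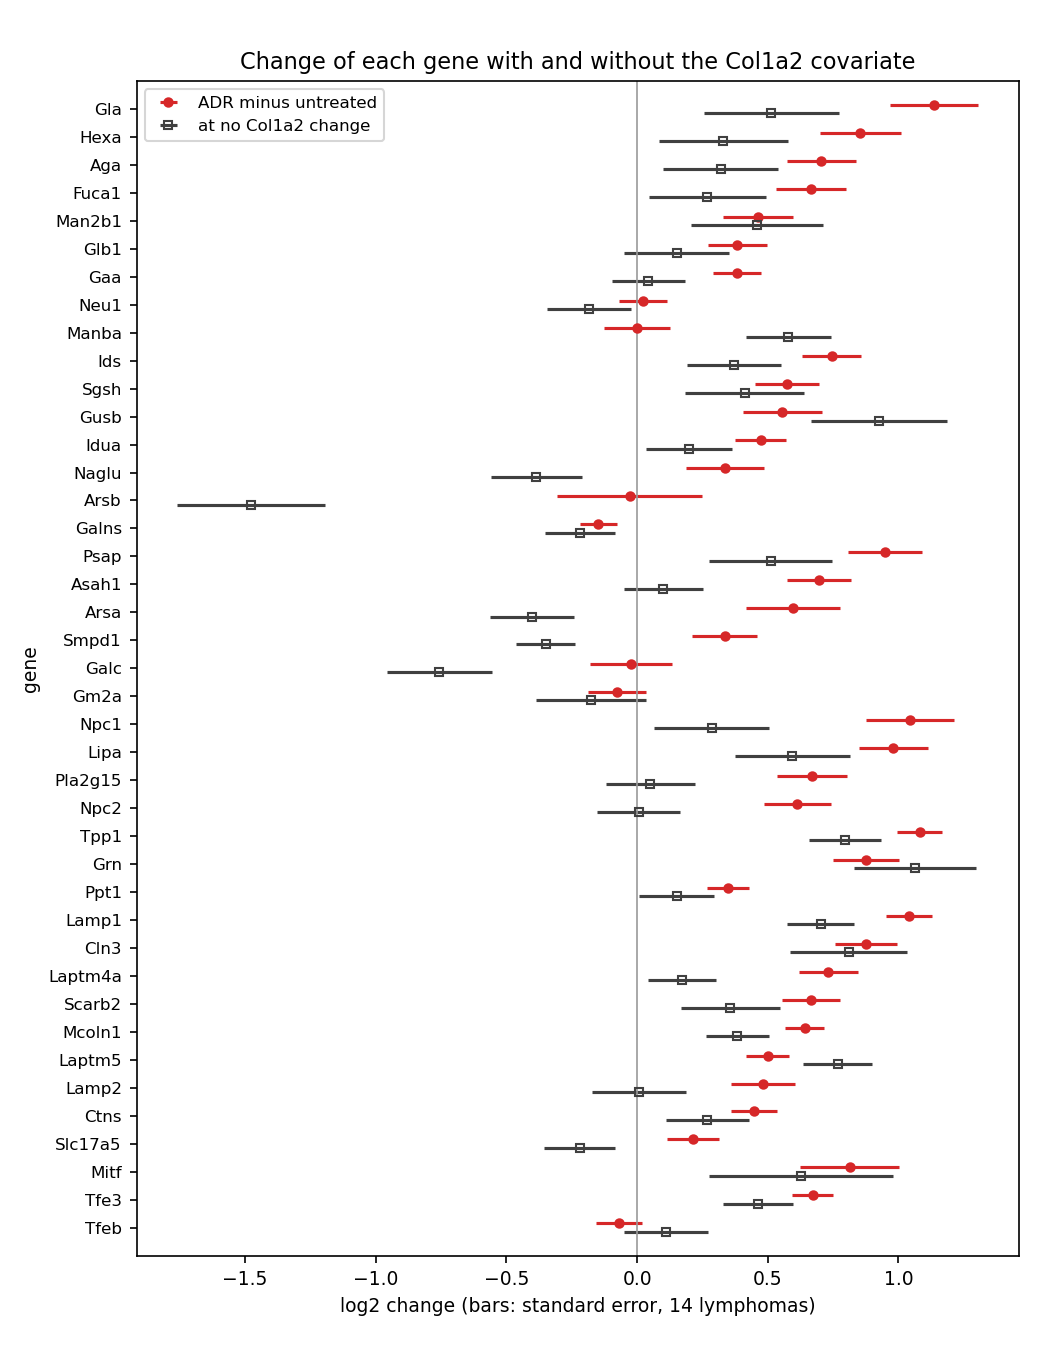
Log2 change of 41 genes by limma (filled circles) and the fitted value at no Col1a2 change (open squares), with standard errors, 14 lymphomas. Grn, Gusb and Laptm5 lie at or right of their change, and Arsb, Galc and Arsa lie left of 0 at no Col1a2 change.

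At no Adgre1 change no gene of the 41 was called (limma; 9 higher and 1 lower at an unadjusted p under 0.05), and 0.0495% of all genes were called in each direction. The median of the 41 genes was 0.42. Lamp1 and Tpp1 came closest, at 0.96 ± 0.21 and 0.89 ± 0.20, both with an adjusted p of 0.0759. Glb1 stood at -0.043 ± 0.25 and Man2b1 at -0.46 ± 0.19. The median standard error of the 41 genes was 0.27 in this fit, against 0.12 in the paired fit. The smallest Adgre1 change was 0.71, so this value lies outside the measured changes. With both covariates no gene of all 18193 was called by limma (2145 at an unadjusted p under 0.05), and the median of the 41 genes was -0.15 (2 higher and 6 lower at an unadjusted p under 0.05). No culture pair had both changes near 0; the nearest, 2949, had the median of 0.016 given above. The parts of lymphoma cells, feeder cells and macrophages in these changes were not tested.

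The 11 lymphomas described as a reanalysis of earlier samples and the other 3 (5043, 9583 and 9584) were compared for each gene. No gene of the 41 differed past the threshold (limma adjusted p of at least 0.864), and 5 did at an unadjusted p under 0.05. Over all 18193 genes 1 was called and 999 had an unadjusted p under 0.05. The largest of these differences were in Naglu, at 0.50 in the 11 and -0.26 in the 3, Pla2g15, at 0.82 and 0.12, and Lipa, at 1.13 and 0.44. Within the 11 lymphomas 33 of the 41 genes rose. Within the other 3 none was called (limma; 18 higher and 1 lower at an unadjusted p under 0.05), against 1 of 18193 genes called higher (0.0055%), and the median change was 0.36.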

How the data were processed

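Total RNA of 14 untreated and 14 ADR-treated lymphoma cultures was measured on 28 arrays. The authors deposited a log2 value for each of 45101 probe sets on each array, and the submitters' processing notes name RMA, which removes background, brings arrays to a common scale and combines the probes of a set, and Partek 6.5. A build of the genome is not given in the sources used here. Array medians were 4.71 to 4.80. Arrays have no read depth, and their number limits precision.

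Of the probe sets, 34945 had 1 gene in the supplied annotation, and the brightest per gene over 28 arrays was used (18193 genes). The test of paired changes was limma 3.58.1 under R 4.3.3 (lmFit, eBayes, lymphoma as a block), with a Benjamini-Hochberg adjusted threshold of 0.05 over the 18193 genes, and correlations by two-sided permutation tests (Python 3.11.15). The pairing comes from the labels. Deviations of the cultures of a lymphoma correlated at 0.27 to 0.62 (median 0.48), against a median of -0.078 between lymphomas. In 12 of the 14 pairs the ADR array was best matched by its own untreated array, and in the others it was not. The paired fit and the fit with the Col1a2 covariate were tested on simulated data, and the other fits and the permutation tests were not.

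The 42 genes and the lists were chosen with earlier results of these data known. All 42 are named; by rule up to 4 called genes per role with the largest change, and Glb1, Hexa, Lamp1, Tfeb, Tfe3 and Mitf, have levels, and up to 2 per other lysosomal role a change. Abcb9, some other changes and the Lamp1 promoter were added after their values were seen. Alternatives covered the pairing, probe set, scaling, variance model, a filter on dim genes, covariates and lymphomas left out.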

Additional observations from a re-analysis of the deposited data

How the results depend on the processing

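The count of 31 genes called higher was 26 with no replicate block, 27 with a random one, 26 and 29 with the most variable or the mean probe set, 31 when quantile normalized again, centred, with trend and robust eBayes or with genes of a mean of at least 6 only, 30 without 403 and 5560, 31 without 1570, 33 within the 11 lymphomas, and 31 to 33 without 1 lymphoma. Without the pairing (no replicate block) Glb1, Hexa, Gusb, Ppt1 and Mitf were no longer called (limma adjusted p 0.106 to 0.511). It was 8, 0 and 0 with Col1a2, Adgre1 or both as covariates and 0 within the other 3 lymphomas. The count called lower, 0, was 1 when centred and 2 with Col1a2 as covariate. For other lysosomal genes, 27 calls higher became 6, 0, 0 and 0 (limma; 12, 5 and 19 at an unadjusted p under 0.05 for the last 3). Their 3 calls lower became 0 with no replicate block, with Adgre1, with both covariates and within the other 3 lymphomas (limma; 2, 2, 5 and 5 unadjusted), and 1 to 3 without 1 lymphoma, with 1 left without 2581, 3594 or 5766.

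Values below 0 for genes called higher were -0.40 for Arsa with Col1a2 as covariate, and -0.043 for Glb1 and -0.46 for Man2b1 with Adgre1. With both they were -0.46 for Glb1, -0.33 for Hexa, -0.67 for Man2b1, -0.49 for Fuca1, -0.51 for Aga, -0.26 for Ids, -0.15 for Idua, -0.34 for Asah1, -0.67 for Arsa, -0.29 for Psap, -0.017 for Pla2g15, -0.37 for Npc2, -0.23 for Lamp2 and -0.26 for Laptm4a. The covariate fits reach outside the measured changes and have larger errors.

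Of the 13 correlations with Col1a2, 7 passed within the 11 lymphomas. The 2 with Adgre1 became 1 by rho, 1 with the most variable probe set and 5 without the 2 farthest lymphomas. Of the 7 relations of untreated levels, counts were 4 with the most variable probe set, 0 without the 2 farthest and 2 within the 11 lymphomas. Fewer lymphomas enter these last fits.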
